A study of Mus musculus with 3 samples.

Results

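The tumour necrosis factor (TNF) superfamily was followed in lung RNA as 31 genes, 10 ligands and 21 receptors, of the 23183 genes with a value. Members were chosen by name, from symbols that start with Tnfsf or Tnfrsf followed by a number, together with Tnf, Lta, Ltb, Fas, Fasl, Cd40, Cd40lg and Ltbr. Of 38 such symbols, those with at least 1 FPKM (sequenced fragments normalised to transcript length and library depth) in any library were kept. Just inside this limit were Tnfrsf22 (highest value 1.00 FPKM) and Lta (1.27 FPKM), and just outside it were Tnfsf11 (0.985 FPKM) and Fasl (0.975 FPKM). The other symbols under it were Tnfrsf8, Tnfsf15, Tnfsf8, Tnfsf4 and Tnfsf18.

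Lung homogenates of female BALB/c mice gave 3 libraries, 1 per group. The OVA+PM10 library came from mice that received particulate matter (PM10, a certified fine dust) into the nose 4 times over 2 weeks and were in addition sensitised to OVA (ovalbumin, a model allergen), by injections of 20 µg with aluminium hydroxide up to day 14 and nasal challenges of 30 µL at 1 mg/mL on days 21, 22 and 23. The PM10 library came from mice given the particles without OVA, and the control sample from control mice, whose vehicle the labels do not name. Lungs were collected 2 days after the final challenge. All animals were labelled as 10 weeks old, although another label gives 5 to 6 weeks, and 5 mice made up a group. The labels give particle doses of 100 and 200 µg without saying which was sequenced, and do not say whether a library pooled animals. No library of OVA alone was analysed here, so the parts of OVA and particles in the OVA+PM10 sample cannot be told apart. With 1 library per group there is no replicate check and no p-value, and each ratio compares 2 libraries. Both comparisons with control share the same control library. In a whole lung, fewer cells of a type and less RNA per cell cannot be told apart.

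Ligands of this superfamily are mostly membrane proteins that form trimers, act on neighbouring cells or are cut from the surface, and bind receptors with cysteine-rich extracellular domains. One class of receptors carries a death domain and can start apoptosis through FADD and caspase-8, while the other binds TRAF adaptors and activates NF-κB, and decoy receptors bind ligand without passing a signal on. In the lung the family is known for acute inflammation (TNF), for the organisation of lymphoid tissue (lymphotoxin), for the survival of B cells and plasma cells (BAFF and APRIL) and for costimulation of T cells in allergic responses (OX40 and 4-1BB).

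The files allowed an estimate of about 14970000, 12990000 and 20240000 reads in the OVA+PM10, PM10 and control libraries, so that 1 read in a transcript of 1 kilobase was worth about 0.0668, 0.077 and 0.0494 FPKM. Low values therefore rest on few reads, and on fewer in short transcripts than in long ones. In the control sample, Tnfrsf4 at 0.688 FPKM rested on about 15.2 reads and the longer Tnfrsf26 at 0.918 FPKM on about 57.7. Ratios followed transcript length in all genes. In the shortest of 10 length classes the median log2 ratio was 0.62 for OVA+PM10 against control and 1.08 for PM10 against control, whereas in the longest class it was -0.35 and -0.77. For this reason each ratio of a called member is given below also with the length trend removed, that is after subtracting the running median of genes of similar length. What the trend stems from was not tested. The control library also stood apart in genes of other tissue: 9 of 10 squamous epithelium markers and all 9 skeletal muscle markers were at least 2-fold lower in both exposed libraries, with sums of 2.25 and 31.1 FPKM in the OVA+PM10 sample, 1.12 and 21.6 FPKM in the PM10 sample, and 4532 and 3938 FPKM in the control sample. Every ratio to control rests on that library, so no value without it can be given, and its part in the ratios was not tested.

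Together the 31 genes summed to 373 FPKM in the OVA+PM10 sample, 421 FPKM in the PM10 sample and 294 FPKM in the control sample. Ligands made up 156, 189 and 110 FPKM of these sums, and receptors 217, 233 and 184 FPKM. All genes together summed to 855739, 1293180 and 546315 FPKM in the OVA+PM10, PM10 and control libraries. The members' share of this total was 0.0436%, 0.0326% and 0.0539%, highest in the control sample and lowest in the PM10 sample. FPKM are per length, and levels are set side by side between genes on that basis. The length trend described above was not removed from these levels, so comparisons between genes of unlike length are approximate. In each of the libraries the abundant end held the same kind of genes: the lymphotoxin chain Ltb, the TNF receptor Tnfrsf1a and the lymphotoxin receptor Ltbr ranked 1, 2 and 3 of the 31 in the OVA+PM10 sample, and the same genes ranked 1, 2 and 4 in the PM10 sample and 2, 1 and 4 in the control sample. The cytokine Tnf itself was at the low end, with rank 28 in the OVA+PM10 sample, 23 in the PM10 sample and 31 in the control sample. In the OVA+PM10 sample 12 members reached 10 FPKM, against 11 in the PM10 sample and 9 in the control sample.

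**Figure D1:**
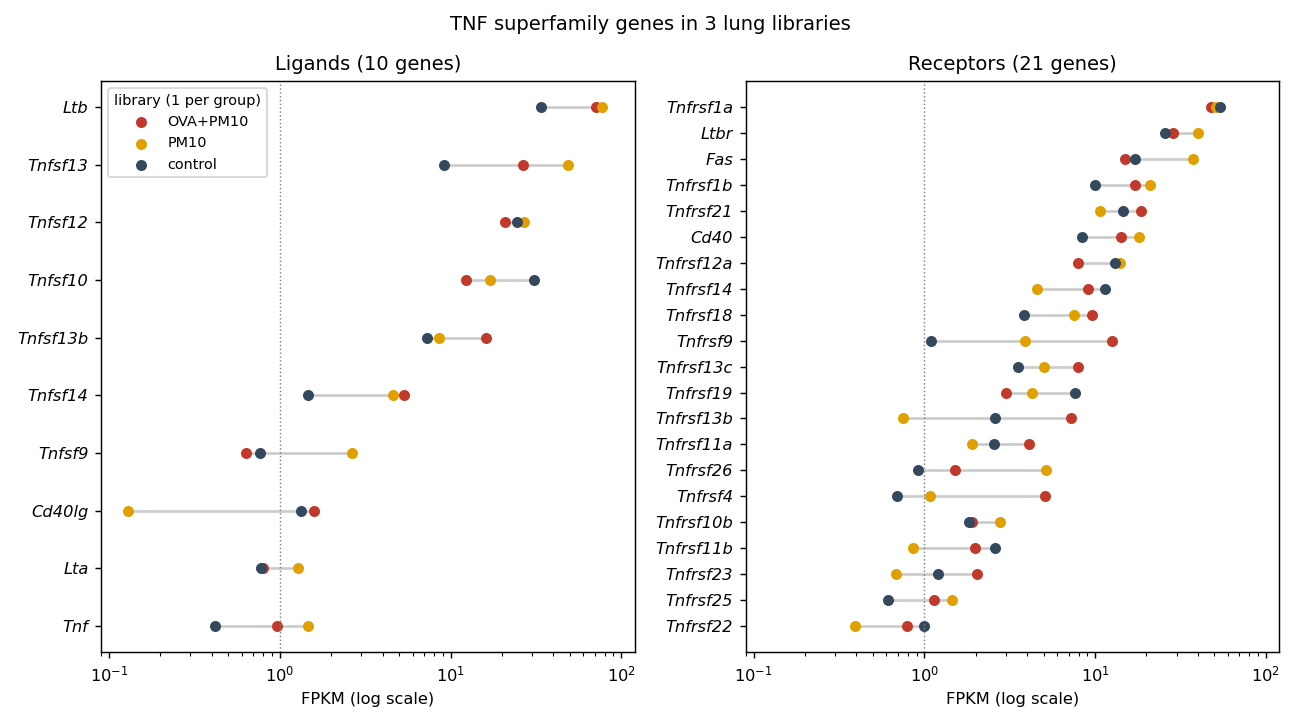
FPKM (log scale) of the 10 ligands (left) and 21 receptors (right) in the OVA+PM10, PM10 and control libraries, 1 point per library, with the dotted line at 1 FPKM. Tnfrsf1a lies between 47.7 and 53.9 FPKM in every library, while Tnfrsf9 spreads over 1.09 to 12.6 FPKM and Tnfsf13 over 9.13 to 49.0 FPKM.

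The first question is how the family in lungs exposed to both OVA and PM10 differed from that in control lungs. Ratios are log2 of (FPKM + 1), which understates differences between low values, and a gene was called when this ratio was at least 2-fold and the higher library had at least 1 FPKM. Of the 28 members that reached 1 FPKM in either library, 8 were called higher and 2 lower in the OVA+PM10 sample, with 18 within 2-fold. Of all 13877 genes at this level, 9.95% were called higher and 8.68% lower. The median log2 ratio of the 28 members was 0.39, against -0.0017 over all genes. Members under 1 FPKM in both libraries, Lta, Tnf and Tnfsf9, are not in these counts. By family, 4 of 8 TRAF-binding receptors of lymphoid and myeloid cells were higher and none lower (median 1.06), none of 5 death domain receptors and none of 4 decoy receptors was called (medians 0.03 and 0.11), and 2 of 3 B cell and tissue ligands were higher. Setting all libraries to an equal sum of FPKM shifted ratios by about -0.65, and the split was then 2 higher and 3 lower, against 4.49% higher and 24.5% lower over all genes. With the length trend removed it was 6 higher and 3 lower, against 7.59% higher and 8.34% lower over all genes. By family, 3 of the 8 TRAF-binding receptors of lymphoid and myeloid cells were then higher and none lower (median 0.76). Of the 3 B cell and tissue ligands, 2 were then still higher.

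Among costimulatory receptors, Tnfrsf9 (4-1BB, which sustains activated T cells, chromosome 4, 150914562 to 150946102, mm10) was at 12.6 FPKM in the OVA+PM10 sample, 3.91 FPKM in the PM10 sample and 1.09 FPKM in the control sample. Its OVA+PM10 ratio to control was the highest of all members, 2.70, and 2.51 with the length trend removed. The gene overlaps Camta1 on the opposite strand, and the sources do not say whether counting used strand. Tnfrsf4 (OX40, a receptor of activated T cells, Th2 cells among them, chromosome 4, 156013843 to 156016612) had 5.12, 1.08 and 0.688 FPKM in the OVA+PM10, PM10 and control libraries. Its ratio to control was 1.86 in the OVA+PM10 sample, or 1.32 with the length trend removed, and its PM10 and control values rested on about 15.2 reads each. Tnfrsf18 (GITR, abundant on regulatory and activated T cells), which lies next to it at 156026164 to 156028895, had 9.64, 7.49 and 3.81 FPKM. That is a log2 ratio of 1.14 for OVA+PM10 against control, which drops to 0.63 once the length trend is removed.

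All 3 receptors had their highest level in the OVA+PM10 sample. Between the PM10 and control samples their order was less clear: the PM10 ratio to control was 0.30 for Tnfrsf4 (-0.67 with the length trend removed), 0.82 for Tnfrsf18 (-0.09) and 1.23 for Tnfrsf9 (0.87). Their ligands were near the detection limit. Tnfsf4, the OX40 ligand of antigen-presenting cells, had 0.21, 0.049 and 0.062 FPKM in the OVA+PM10, PM10 and control libraries, and Tnfsf18, the GITR ligand, had 0.127 FPKM in the OVA+PM10 sample and was listed at 0 in both others. Tnfsf9, the 4-1BB ligand, had 0.636, 2.66 and 0.764 FPKM, with its highest value in the PM10 sample and not in the library where its receptor was highest. Markers of T cells give a context: their summed level over 10 genes was 123, 152 and 70.9 FPKM, with 2 of 10 higher and none lower in the OVA+PM10 sample than in the control sample. For 6 markers of regulatory T cells the sums were 18.8, 13.3 and 16.7 FPKM, with 1 of 6 higher. None of either list was listed at 0 in any library, and their part in these ratios was not tested.

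The B cell ligands and their receptors formed another set. Tnfsf13 (APRIL, which keeps plasma cells alive, chromosome 11, 69682846 to 69685784) was at 26.7 FPKM in the OVA+PM10 sample, 49.0 FPKM in the PM10 sample and 9.13 FPKM in the control sample. Tnfsf13b (BAFF, which B cells need to survive, chromosome 8, 10006467 to 10039072) had 16.1, 8.53 and 7.25 FPKM. The log2 ratio of OVA+PM10 to control was 1.45 for Tnfsf13 (1.09 with the length trend removed) and 1.05 for Tnfsf13b (1.28 with the length trend removed). Both ligands were thus higher in the OVA+PM10 sample with and without the length trend. Myeloid cells are a known source of both. The 10 markers of monocytes and recruited macrophages summed to 915, 570 and 330 FPKM, with 4 higher and none lower for OVA+PM10 against control, and 6 higher with the length trend removed. The 10 alveolar macrophage markers summed to 3379, 2048 and 858 FPKM, with 3 higher and 2 lower for OVA+PM10 against control. Chil3 alone made up 2106, 641 and 93.4 FPKM of these sums. For OVA+PM10 against PM10, 1 of the alveolar macrophage markers was higher and 5 were lower. None of either list was listed at 0, and their part in the ligand ratios was not tested.

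Tnfrsf13b (TACI, a receptor of both ligands on B cells, chromosome 11, 61126755 to 61149372) was at 7.27 FPKM in the OVA+PM10 sample, 0.754 FPKM in the PM10 sample and 2.59 FPKM in the control sample, so that its OVA+PM10 value lay above and its PM10 value below control. The ratio to control was 1.20 for OVA+PM10 (1.06 with the length trend removed) and -1.03 for PM10 (-1.22 with the length trend removed). Tnfrsf13c, the BAFF receptor proper, had 7.89, 5.04 and 3.53 FPKM, and its ratio of 0.97 for OVA+PM10 against control did not reach 2-fold. Summed over 10 B cell markers, the libraries had 219, 176 and 121 FPKM, with 1 of 10 higher and none lower in the OVA+PM10 sample than in control. Cd79b alone made up 88.1, 97.3 and 36.9 FPKM of these sums. For PM10 against control, 2 of the 10 were higher and none lower, with a median log2 ratio of -0.26. The 6 plasma cell markers summed to 1540, 252 and 224 FPKM, with 4 of 6 higher and none lower in the OVA+PM10 sample, and none of these markers was listed at 0. Whether the cell types account for these ratios was not tested.

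Tnfsf13 shares its locus with Tnfsf12 and with Tnfsfm13, a read-through gene that joins both, and an antisense gene overlaps it. Tnfsfm13 had 3.80, 11.2 and 8.29 FPKM in the OVA+PM10, PM10 and control libraries, and the sources do not say how reads were divided between these genes. Summed, Tnfsf13 and Tnfsfm13 had 30.5, 60.2 and 17.4 FPKM, a log2 ratio to control of 0.77 for OVA+PM10 and 1.73 for PM10. The OVA+PM10 call for Tnfsf13 therefore did not hold for this sum, and the PM10 call did. Tnfsf12 (TWEAK, a regulator of tissue repair) was within 2-fold in every comparison, at 20.8, 27.1 and 24.4 FPKM.

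Of the lymphotoxin group, Ltb (lymphotoxin β, a surface ligand of lymphocytes, chromosome 17, 35194439 to 35196320) had 71.2, 76.9 and 33.7 FPKM in the OVA+PM10, PM10 and control libraries. Its ratios to control were 1.06 for OVA+PM10 and 1.17 for PM10, which became 0.66 and 0.49 with the length trend removed and so no longer reached 2-fold. Tnfsf14 (LIGHT, a T cell ligand of LTβR and HVEM, chromosome 17, 57189492 to 57194177) had 5.34, 4.62 and 1.46 FPKM, on about 148, 111 and 54.4 reads. The ratio to control was 1.37 for OVA+PM10 (1.12 with the length trend removed) and 1.20 for PM10 (0.72 with the length trend removed). Lta, the partner chain that joins Ltb in a mixed trimer, had 0.803, 1.27 and 0.774 FPKM. Tnf had 0.969, 1.46 and 0.419 FPKM, that is about 23.8, 31.1 and 13.9 reads. Neither Lta nor Tnf reached 2-fold in FPKM + 1 in any comparison. With a pseudocount of 0.25 FPKM the PM10 ratio of Tnf to control was 1.35.

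On the lower side stood Tnfsf10 (TRAIL, a death ligand that also marks interferon responses, chromosome 3, 27317028 to 27342427). It had 12.3 FPKM in the OVA+PM10 sample, 17.1 FPKM in the PM10 sample and 31.0 FPKM in the control sample, which put it at rank 12, 9 and 3 among the members. The ratio of OVA+PM10 to control was -1.27, or -1.03 with the length trend removed, and that of PM10 to control -0.82. Its death receptor Tnfrsf10b was low and within 2-fold, at 1.89, 2.77 and 1.83 FPKM. Tnfrsf19 (TROY, a TRAF-binding receptor of epithelial and stem cells, chromosome 14, 60963875 to 61046490) had 3.004, 4.28 and 7.67 FPKM, a ratio of -1.11 for OVA+PM10 against control and -1.02 with the length trend removed. Alongside these, 8 of 10 endothelial markers were lower in the OVA+PM10 sample and none higher, with sums of 666, 1532 and 1439 FPKM in the OVA+PM10, PM10 and control libraries, of which Cldn5 alone made up 221, 838 and 265 FPKM, and for alveolar type 1 cells 5 of 7 markers were lower, again with none higher and with sums of 1104, 3194 and 2432 FPKM. For PM10 against control, 1 endothelial marker (Cldn5) was higher and 2 were lower, with a median of -0.55. None of these markers was listed at 0, and their part in the values of Tnfsf10 and Tnfrsf19 was not tested.

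**Figure D2:**
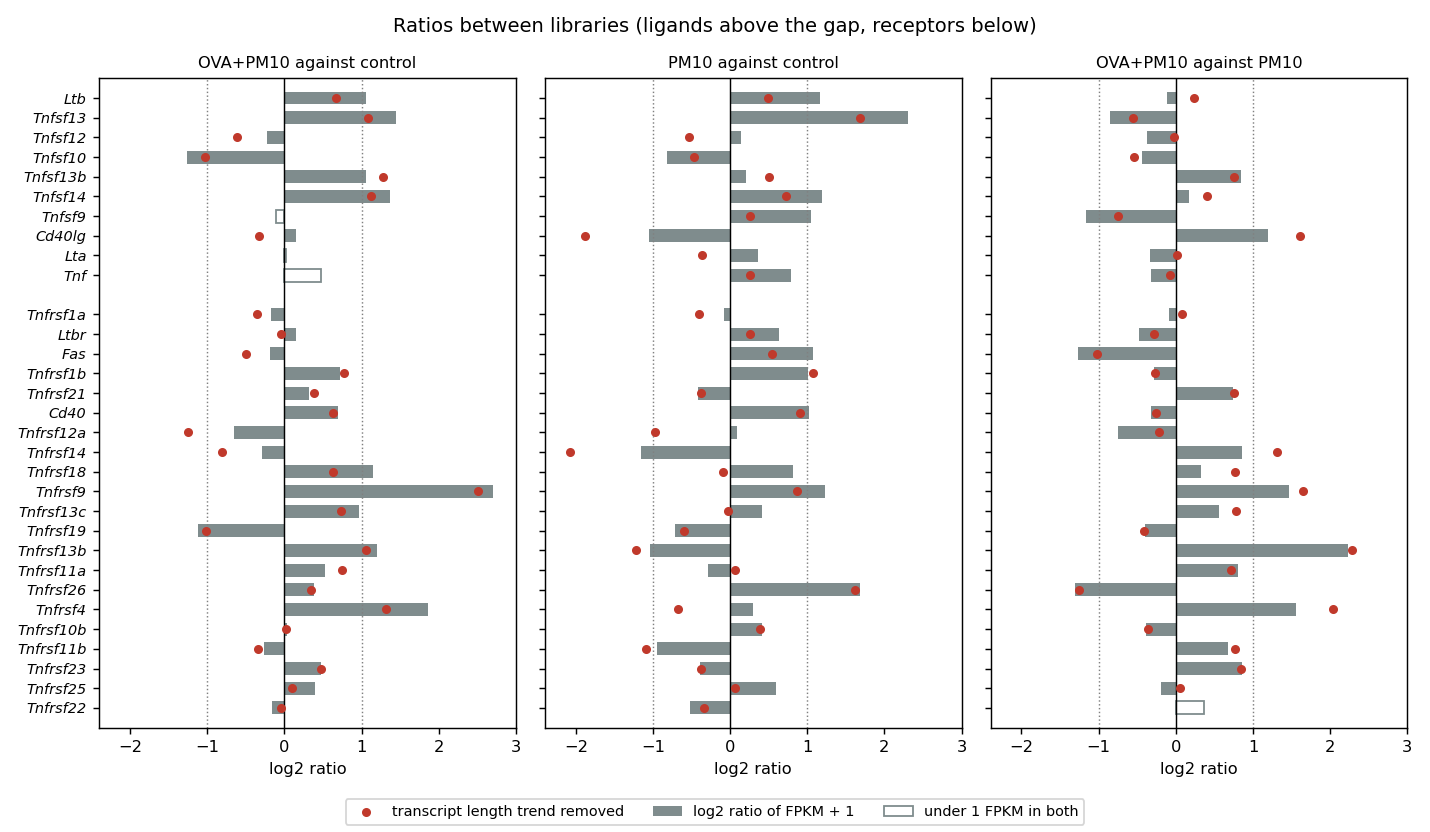
Log2 ratios of FPKM + 1 (bars; open where both libraries are under 1 FPKM) for OVA+PM10 against control, PM10 against control and OVA+PM10 against PM10, with red points for the ratio after removal of the transcript length trend and dotted lines at 2-fold. Tnfrsf9 reaches 2.70 on the left, Tnfsf13 2.30 in the middle and Tnfrsf13b 2.24 on the right.

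Promoter sequence is shown for members called higher in the OVA+PM10 sample whose window holds a match to one of the motifs searched, since these are the genes on which that comparison turns. Windows were the 250 bases before each gene start in RefSeq (GRCm38.p6), available for 23 of the 31 members in 27 windows. The reference is C57BL/6J sequence and the mice were BALB/c. The motifs were searched on both strands: κB as GGG followed, after any 2 bases, by TTTCC or TTCCC, forms that can overlap each other, AP-1 as TGANTCA, STAT6 as TTC followed, after any 4 bases, by GAA, and the TATA box as TATAAA. Either κB form occurred in 2.82% of all 32851 windows, AP-1 in 6.75%, STAT6 in 5.85% and the TATA box in 12.4%. Of the 27 member windows, 4 held a κB form, 5 AP-1, 4 STAT6 and 3 the TATA box. The windows of Tnfsf13b overlap, and the same STAT6 match is counted in both. Bases annotated as exon were left out, except in 30-base stretches around the matches of Tnfrsf9 and Tnfsf13, which lie in annotated exons of the same genes. Capitals mark the match: κB in Ltb (chr17:35194257-35194438, plus strand), Tnfrsf13b (chr11:61126505-61126754, plus strand) and Tnfrsf9 (chr4:150927946-150927975, plus strand, where both κB forms overlap), AP-1 in Tnfsf14 (chr17:57194182-57194431, minus strand) and Tnfsf13 (chr11:69685669-69685698, minus strand), and STAT6 in Tnfsf13b (chr8:10006217-10006466, plus strand).
Ltb: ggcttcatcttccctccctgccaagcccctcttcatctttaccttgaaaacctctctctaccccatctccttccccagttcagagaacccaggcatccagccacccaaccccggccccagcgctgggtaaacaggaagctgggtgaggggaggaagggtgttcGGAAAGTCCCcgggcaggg
Tnfrsf13b: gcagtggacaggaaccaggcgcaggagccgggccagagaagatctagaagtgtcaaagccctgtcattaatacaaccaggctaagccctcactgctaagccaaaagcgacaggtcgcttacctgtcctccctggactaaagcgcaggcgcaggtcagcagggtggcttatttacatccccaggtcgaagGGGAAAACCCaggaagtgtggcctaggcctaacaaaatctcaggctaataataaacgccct
Tnfrsf9: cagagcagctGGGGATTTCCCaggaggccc
Tnfsf14: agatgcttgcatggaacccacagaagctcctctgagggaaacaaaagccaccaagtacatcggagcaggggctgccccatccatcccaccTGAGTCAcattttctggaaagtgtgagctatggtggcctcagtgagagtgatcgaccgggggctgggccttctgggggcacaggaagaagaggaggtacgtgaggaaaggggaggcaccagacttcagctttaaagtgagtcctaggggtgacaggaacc
Tnfsf13: tcattcatgccTGAGTCAgagtctaccaca
Tnfsf13b: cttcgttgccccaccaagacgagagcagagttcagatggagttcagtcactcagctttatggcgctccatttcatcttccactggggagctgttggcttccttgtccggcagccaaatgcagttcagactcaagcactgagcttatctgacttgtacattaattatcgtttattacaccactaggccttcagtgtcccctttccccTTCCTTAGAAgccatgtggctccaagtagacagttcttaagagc
The same windows or a further window of these genes also held matches that are not printed, AP-1 15 bases before the start of Tnfrsf9 and 127 bases before a second start of Tnfsf13b. A match describes letters and is not evidence of a bound site. The remaining members called higher, Tnfrsf4 and Tnfrsf18, had a window with none of these letters. Another window of Tnfrsf9 (chr4:150919905-150920154) likewise had none, so the matches of Tnfrsf9 belong to a different start of that gene.

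The second question is how the family in lungs given particles alone differed from that in control lungs. All 31 members reached 1 FPKM in the PM10 or the control sample, and 9 were called higher and 3 lower in the PM10 sample. Over all 13693 genes 13.6% were called higher and 13.9% lower. The members' median log2 ratio was 0.36, against 0.02 over all genes. With the length trend removed the split was 3 higher and 4 lower and the members' median -0.03, and with libraries scaled to the same sum, which shifts ratios by about -1.24, it was 1 higher and 13 lower. Over all genes, 7.79% were higher and 11.3% lower with the length trend removed, and 1.84% higher and 51.8% lower with equal sums. The scaling multiplies each library by its own factor. Because 1 FPKM is then added, ratios of low values move by less than the stated shift. Among the members called higher, the ratios of Cd40, Fas, Ltb and Tnfrsf1b changed sign, which follows from the scaling itself. Of the 8 TRAF-binding receptors of lymphoid and myeloid cells, 3 were higher and 2 lower as deposited. With the length trend removed, 1 of them was higher and 2 were lower.

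The gene with the highest ratio in the PM10 sample was the APRIL gene Tnfsf13, with 49.0 FPKM against 9.13 FPKM in control, a log2 ratio of 2.30 and of 1.68 with the length trend removed. Tnfrsf26, one of a mouse cluster of related receptors (chromosome 7, 143607659 to 143628722), followed with 5.18 FPKM in the PM10 sample and 0.918 FPKM in control, and with 1.503 FPKM in the OVA+PM10 sample. Its ratio to control was 1.69, or 1.62 with the length trend removed. Its relatives in the same cluster, the decoy receptors Tnfrsf22 and Tnfrsf23, did not share this value: they had 0.394 and 0.684 FPKM in the PM10 sample, against 1.00 and 1.20 FPKM in control. These relatives are similar in sequence and overlap an antisense gene, so the division of reads between them is uncertain.

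Tnfrsf1b (TNFR2, the TNF receptor of lymphoid, myeloid and endothelial cells, chromosome 4, 145213463 to 145246870) was at 17.1 FPKM in the OVA+PM10 sample, 21.0 FPKM in the PM10 sample and 9.95 FPKM in the control sample. The PM10 ratio was 1.01, and 1.07 with the length trend removed. The other TNF receptor, Tnfrsf1a, found on nearly all cells, had 47.7, 50.9 and 53.9 FPKM, with ratios between -0.17 and -0.08. TNFR2 was thus only just 2-fold higher in the PM10 sample as deposited. The call was not kept with a pseudocount of 5 FPKM or under scaling by the median ratio. Under scaling to the same sum its ratio was -0.16. TNFR1 was within 2-fold in every comparison as deposited.

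Fas (the death receptor of the Fas ligand, chromosome 19, 34290666 to 34327772) had 15.0, 37.5 and 17.2 FPKM in the OVA+PM10, PM10 and control libraries, so that it stood out in the PM10 sample alone. Its PM10 ratio of 1.08 became 0.54 with the length trend removed. Fasl had 0.477, 0.709 and 0.975 FPKM, the opposite order of PM10 and control. Cd40 (a receptor of antigen-presenting cells, chromosome 2, 165055627 to 165072948) had 14.2, 18.0 and 8.38 FPKM, a PM10 ratio of 1.02 and 0.90 with the length trend removed. Tnfsf9, at 2.66 FPKM against 0.764 FPKM in control on about 44.6 and 20.0 reads, had a ratio of 1.05, and 0.25 with the length trend removed. Tnfrsf9 reached 1.23, and 0.87 with the length trend removed. The calls of Ltb, Tnfsf14, Fas, Cd40, Tnfsf9 and Tnfrsf9 in this comparison therefore rested on leaving the length trend in.

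The 3 members called lower in the PM10 sample were Tnfrsf14, Cd40lg and Tnfrsf13b, and all of them stayed lower by at least 2-fold with the length trend removed. Tnfrsf14 (HVEM, the receptor of LIGHT, chromosome 4, 154921933 to 154928563) had 9.11, 4.57 and 11.4 FPKM in the OVA+PM10, PM10 and control libraries. Its ratio of PM10 to control was -1.15, or -2.07 with the length trend removed. Cd40lg (CD40 ligand, the helper signal of T cells, chromosome X, 57212143 to 57224042) had 1.59, 0.130 and 1.33 FPKM, which corresponds to about 29.7, 2.1 and 33.7 reads. The ratio of -1.05 thus rests on very few reads in the PM10 sample. Among markers of T cells, the coreceptor Cd4 was measured at 8.91, 3.74 and 6.70 FPKM, a PM10 ratio to control of -0.70 that is within 2-fold. Cd3d reached 24.3, 46.9 and 9.04 FPKM. The 2 higher calls among the 10 for PM10 against control were Cd3d (2.25) and Cd3g (1.74). The 1 lower call was Cd3e (-1.16). For the list as a whole the median PM10 ratio was 0.53, and the part of these genes in the value of Cd40lg was not tested.

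**Figure D3:**
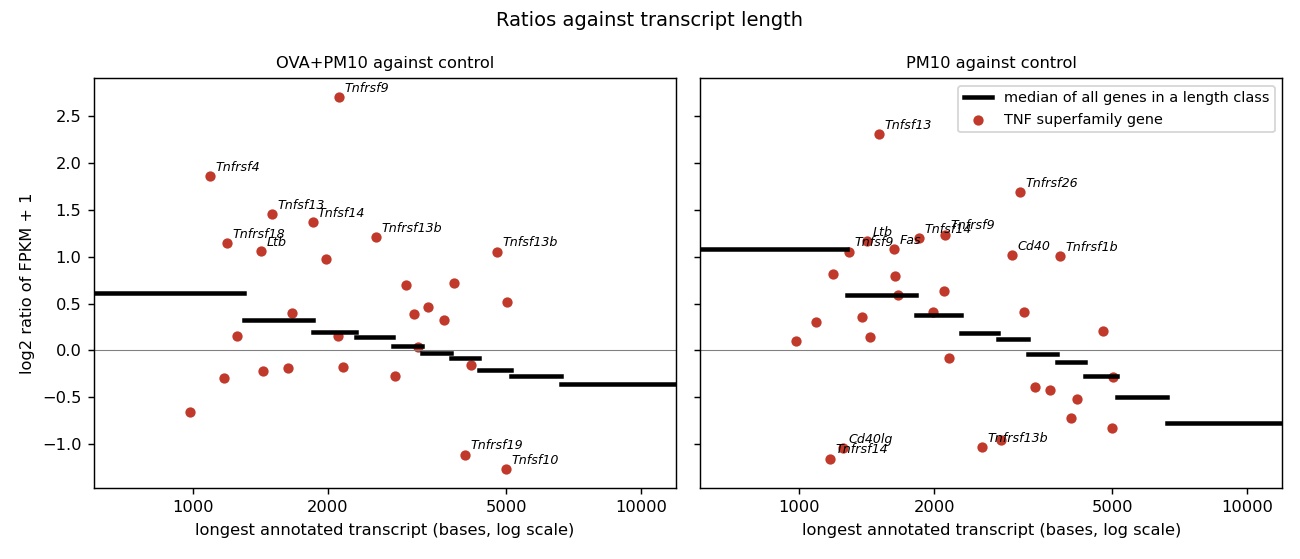
Log2 ratios of FPKM + 1 of the members (red points, those at 2-fold or more named) against the length of the longest annotated transcript (bases, log scale), with black bars for the median ratio of all genes in 10 length classes (the outer classes run past the axis). The medians run from 0.62 down to -0.35 for OVA+PM10 against control and from 1.08 down to -0.77 for PM10 against control. Tnfrsf9 lies far above the bar of its class for OVA+PM10 against control, and Tnfsf13 and Tnfrsf26 lie far above theirs for PM10 against control.

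The third question is how lungs given OVA and PM10 differed from lungs given PM10 alone. Of 30 members that reached 1 FPKM in either library, 4 were called higher and 3 lower in the OVA+PM10 sample, against 11.8% higher and 9.0% lower over all 13556 genes. Their median was -0.15, against -0.03 over all genes. Scaling to the same sum shifted ratios by 0.60 and gave 10 higher and none lower, against 24.7% higher and 2.51% lower over all genes. Removal of the length trend gave 5 higher and 2 lower, against 12.0% higher and 6.68% lower over all genes. The 4 higher were Tnfrsf13b (log2 ratio 2.24), Tnfrsf4 (1.56), Tnfrsf9 (1.47) and Cd40lg (1.20). With the length trend removed their ratios were 2.28, 2.04, 1.65 and 1.60. The 3 lower were Tnfrsf26 (-1.30), Fas (-1.27) and Tnfsf9 (-1.16), for which removal of the length trend gave -1.26, -1.02 and -0.75. Tnfrsf22 was under 1 FPKM in both libraries.

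Several marker lists differed in this comparison. Plasma cell markers summed to 1540 FPKM in the OVA+PM10 sample and 252 FPKM in the PM10 sample, with 3 of 6 higher and none lower. Of 8 eosinophil markers, with sums of 367 and 83.1 FPKM, 6 were higher, and Prg2, Epx and Ear6 were listed at 0 in the PM10 sample. NK cell markers went the other way, with 5 of 8 lower and sums of 107 FPKM in the OVA+PM10 sample and 464 FPKM in the PM10 sample. Gzma alone made up 70.5 and 374 FPKM of these sums. With the length trend removed, 3 of the 8 were lower and none higher. For B cells, 2 of 9 markers at 1 FPKM or more were higher and 1 was lower. Whether any of these accounts for the member ratios was not tested.

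The remaining members stayed within 2-fold in all comparisons. Ltbr, the stromal receptor of lymphotoxin, had 28.5, 40.1 and 25.6 FPKM in the OVA+PM10, PM10 and control libraries. Tnfrsf21 (DR6, a death domain receptor) had 18.6, 10.7 and 14.6 FPKM, and Tnfrsf25 (DR3, the receptor of TL1A on T cells) had 1.13, 1.44 and 0.616 FPKM. Tnfsf15, the gene of TL1A, was under the limit, at 0.489, 0.350 and 0.558 FPKM. Tnfrsf12a (Fn14, the TWEAK receptor, known to be induced in injured tissue) had 7.91, 14.0 and 13.1 FPKM. With the length trend removed, which is large for its short transcript of 984 bases, its ratio of OVA+PM10 to control was -1.25. Tnfrsf11a (RANK) had 4.08, 1.90 and 2.54 FPKM, the RANKL decoy Tnfrsf11b (osteoprotegerin, -1.10 for PM10 against control with the length trend removed) 1.98, 0.859 and 2.59 FPKM, and their ligand Tnfsf11 (RANKL) 0.985, 0.302 and 0.319 FPKM. In both exposed libraries osteoprotegerin was thus below RANK, and in the control sample the values were 2.59 and 2.54 FPKM. The low lymphocyte genes Tnfsf8 (CD30 ligand) and Tnfrsf8 (CD30) had 0.640, 0.336 and 0.470 FPKM, and 0.732, 0 and 0.285 FPKM, where 0 is a value listed at 0 in the PM10 sample.

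Set beside each other, ligands and receptors of known pairs differed in which side was abundant. Ltb exceeded Ltbr in every library, and Tnfsf10 exceeded Tnfrsf10b. By contrast Tnf was far below both of its receptors, Fasl below Fas, Tnfsf4 below Tnfrsf4 and Tnfsf18 below Tnfrsf18 in every library. For APRIL and TACI the levels went opposite ways between the exposed libraries: Tnfsf13 had 26.7 FPKM and Tnfrsf13b 7.27 FPKM in the OVA+PM10 sample, whereas they had 49.0 and 0.754 FPKM in the PM10 sample.

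**Figure D4:**
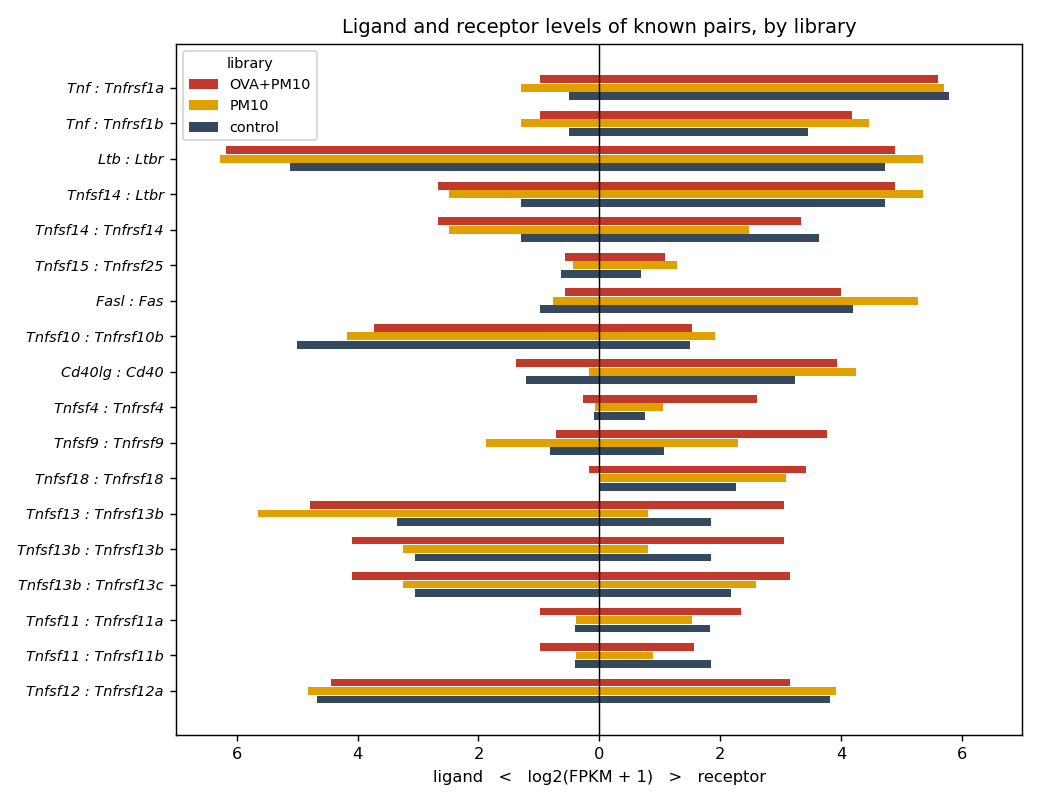
Ligand (left) and receptor (right) levels of known pairs as log2(FPKM + 1), with 1 bar per library for OVA+PM10, PM10 and control. Ltb and Ltbr are high on both sides, whereas Tnf, Fasl, Tnfsf4 and Tnfsf18 stay at or under 1.46 FPKM beside receptors that are higher in every library.

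Downstream of the receptors, most genes stayed within 2-fold. None of the 12 adaptor genes was called for OVA+PM10 against control, and 1 was called higher for PM10 against control: Traf5, an adaptor of CD40 and lymphotoxin signalling, with 6.95, 16.4 and 6.46 FPKM in the OVA+PM10, PM10 and control libraries. Its PM10 ratio of 1.22 became 0.83 with the length trend removed, when no adaptor was called. The list's median log2 ratio was 0.06 for OVA+PM10 and 0.16 for PM10. Tradd, the adaptor of TNFR1, had 16.2, 23.6 and 13.5 FPKM. Traf4 had 8.02, 5.44 and 4.06 FPKM and Traf3ip3 8.87, 4.97 and 4.15 FPKM.

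Among 18 genes of the NF-κB core, 1 was higher and none lower for OVA+PM10 against control (median 0.17), and 1 was higher and 2 lower for PM10 against control (median 0.19). Nfkbia, the inhibitor IκBα that NF-κB itself induces, had 23.3 FPKM in the OVA+PM10 sample, 81.5 FPKM in the PM10 sample and 14.1 FPKM in the control sample, a PM10 ratio of 2.45. Rel, the subunit c-Rel of lymphocytes, had 3.21, 0.229 and 4.24 FPKM, and Nfkb1, the p105/p50 gene, had 27.4, 13.1 and 29.3 FPKM, with PM10 ratios of -2.09 and -1.10. The other subunits were within 2-fold, with PM10 ratios to control of 0.64 for Rela, 0.83 for Relb and 0.17 for Nfkb2. Once the length trend was taken out, 1 of the 18 genes was higher (Nfkbia, 1.87) and 1 lower (Rel, -1.37) for PM10 against control, and Nfkb1 was at -0.92. Bcl3, an atypical IκB protein, was the gene called higher in the OVA+PM10 sample, with 13.0, 6.85 and 5.79 FPKM. Its ratio to control was 1.04, and 0.79 with the length trend removed, when no gene of the list was called for OVA+PM10 against control.

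Of 13 ubiquitin editors and brakes, 1 was higher and 1 lower for OVA+PM10 against control (median 0.18), and 1 was higher and none lower for PM10 (median 0.37). After removal of the length trend there was 1 higher (Tnip3, 1.77) and none lower for OVA+PM10. For PM10 the 2 then higher were Tnip3 (1.10) and Tnfaip3 (1.07). Otulin, the gene called higher for PM10 before, went from 1.22 to 0.59. Tnip3, a partner of the brake A20, had 2.96, 1.43 and 0.350 FPKM, Otulin, which removes linear ubiquitin chains, 22.0, 46.7 and 19.5 FPKM, Otud7b 10.8, 17.7 and 24.7 FPKM, and Sharpin 20.8, 24.1 and 12.5 FPKM. Of 11 genes of death signalling, 1 was lower and none higher for OVA+PM10 against control (median 0.15), and 1 was lower and none higher for PM10 against control (median 0.10). Cflar, the gene of c-FLIP that holds back caspase-8, had 12.6 FPKM in the OVA+PM10 sample, 17.0 FPKM in the PM10 sample and 33.3 FPKM in the control sample, with ratios to control of -1.34 and -0.93. Xiap, an inhibitor of caspases, had 16.03, 10.3 and 29.7 FPKM, with ratios of -0.85 and -1.44. Diablo, which neutralises XIAP, had 16.7, 25.0 and 13.8 FPKM, and the caspase Casp6 had 23.3, 32.9 and 18.4 FPKM. Without the length trend, Cflar alone of the 11 was still called for OVA+PM10 (-1.03) and none was called for PM10.

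Of 6 sheddases and cofactors, 1 was higher for OVA+PM10 (median -0.18) and 2 were lower for PM10 (median -0.69). After removal of the trend the OVA+PM10 call of Adam8 remained (1.71) and the list's median was 0.04, and none was lower for PM10. Adam8, a metalloprotease of leukocytes, had 13.5, 1.43 and 3.60 FPKM in the OVA+PM10, PM10 and control libraries. Furin, a convertase that processes ligands such as APRIL and TWEAK, had 23.4, 12.1 and 27.3 FPKM, and Rhbdf1 6.61, 4.24 and 10.6 FPKM. Adam10 had 28.2, 23.3 and 32.3 FPKM.

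Of genes that TNF is known to induce, 3 of 18 were higher and none lower for OVA+PM10 against control (median 0.43), and without the length trend 2 were higher and 2 lower (median 0.22). For PM10 against control 7 of 20 were higher and 5 lower (median 0.30), and without the length trend 5 were higher and 4 lower (median 0.03). The chemokine Ccl20 had 5.73, 6.53 and 0.0740 FPKM in the OVA+PM10, PM10 and control libraries, Cxcl1 3.76, 6.98 and 1.18 FPKM, and Ccl2, which attracts monocytes, 14.5, 4.21 and 3.36 FPKM. Cxcl10, which is also induced by interferon, had 8.82, 0.991 and 6.14 FPKM. Of 9 lymphotoxin and RANK targets, 2 of the 8 at 1 FPKM or more were higher and 2 lower for OVA+PM10 (median 0.09), and 4 of 7 were lower for PM10 (median -1.01). Without the length trend 1 was higher and 3 lower for OVA+PM10 (median -0.40), and 5 of 7 were lower for PM10 (median -1.85). Cxcl13, the follicle chemokine that attracts B cells, had 39.7, 2.92 and 30.3 FPKM, Enpp2, an enzyme of high endothelial venules, 14.5, 16.02 and 39.2 FPKM, and Ccl22, a chemokine of dendritic cells and macrophages, 13.6, 8.56 and 4.82 FPKM. Among the lower calls of both comparisons was Glycam1, at -6.30 for OVA+PM10 and -7.08 for PM10, whose levels are given under the other observations.

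**Figure D5:**
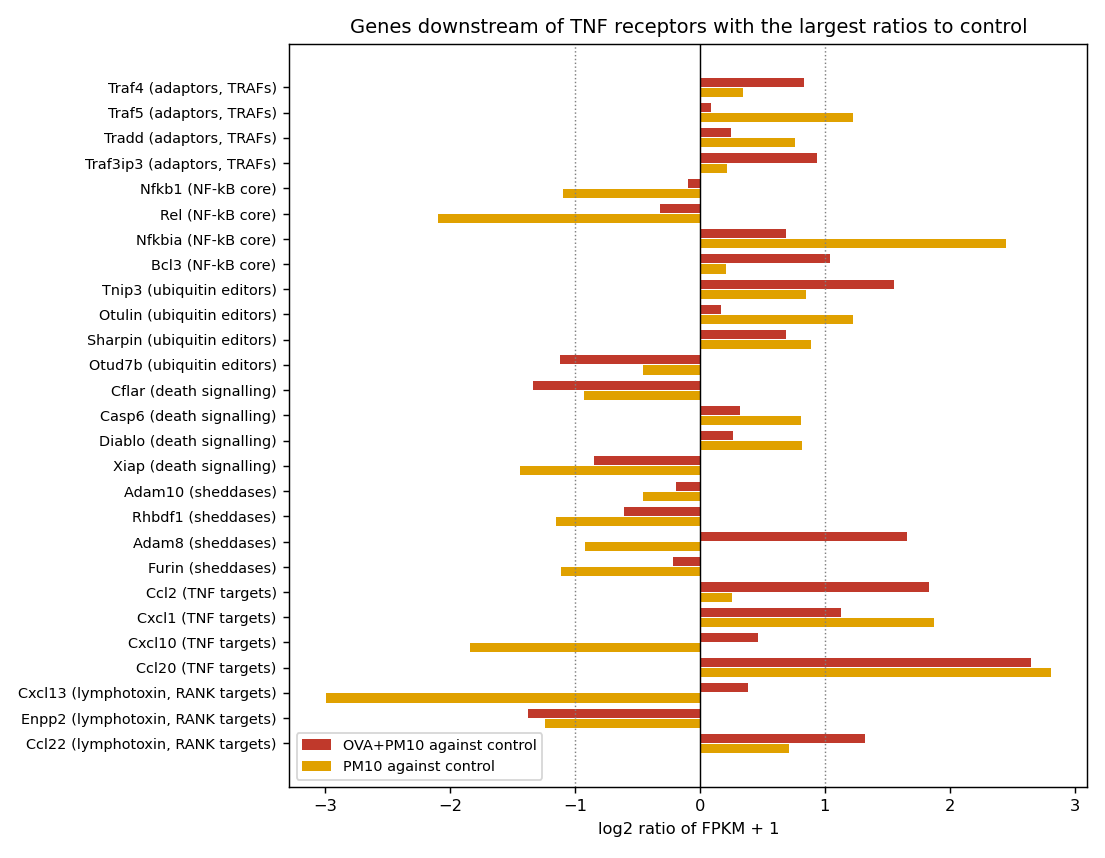
Log2 ratios of FPKM + 1 to control for OVA+PM10 (red) and PM10 (yellow), for up to 4 genes of each downstream list with the largest ratios, leaving out Glycam1, which was listed at 0 in 1 library; dotted lines mark 2-fold. Nfkbia reaches 2.45 and Rel -2.09 in the PM10 sample, and Ccl20 lies at 2.65 for OVA+PM10 and 2.81 for PM10.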

How the data were processed

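Gene expression was measured by RNA sequencing of lung homogenates in 3 libraries, assigned to their groups by title. Per the labels' protocols, RNA was extracted with Trizol and libraries were made with a directional NEBNext kit. The deposited values are FPKM, a unit inferred from the values as no column heading states it. TopHat and mm10 are named in the submitters' processing notes. The counting program, annotation, strand use and treatment of multiply mapping reads were not given in the sources used here. No further scaling was applied.

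From these values the log2 ratio of FPKM + 1 was computed for each pair of libraries over all genes whose higher value reached 1 FPKM, and genes at 2-fold or more were called. With 1 library per group no test was possible. Transcript length and positions came from GENCODE M21 (GRCm38, the assembly of mm10), matched by symbol for 22148 genes (95.5%) and for all 31 members. The length trend is a running median over 1001 genes. Reads were estimated from the steps of low FPKM values in genes with a single transcript and are approximate. Python 3.11.15, numpy and pandas were used, and the code was tested on simulated data.

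The members and all gene lists were chosen with earlier results of these data known. Values in each library are given for members called in any comparison, for the 3 most abundant of each role, and for up to 4 genes of each of 8 downstream lists with the largest ratio to control. Of 25 cell type marker lists, those set beside a result are given. Genes named beyond this rule were picked with their values known. Not every symbol that fits these name forms, and not every gene of the pathway, is reported here. Alternatives were 0.25 or 5 FPKM as pseudocount, no filter or one at 5 FPKM, scaling to the same sum or by the median ratio, removal of the length trend, and a 4-fold threshold.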

Additional observations from a re-analysis of the deposited data

How the results depend on the processing

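No paired analysis was possible because each group has 1 library, and for the same reason no library could be left out. Scaling to the same sum shifted all ratios and moved most counts: for OVA+PM10 against control 2 members were higher (8 as reported) with a median of 0.0288, for PM10 against control 1 was higher and 13 lower (9 and 3) with a median of -0.58, and for OVA+PM10 against PM10 10 were higher and 0 lower (4 and 3) with a median of 0.48. By construction it reversed the PM10 ratios to control of Cd40 (-0.13), Fas (-0.12), Ltb (-0.0519) and Tnfrsf1b (-0.16). Scaling by the median ratio left 5 members higher for PM10 against control. Removal of the length trend left 3 of these 9 higher, with a median of -0.0283. A pseudocount of 5 FPKM left 2 higher and 1 lower for OVA+PM10 against control, 2 higher and 0 lower for PM10 against control, and 1 higher and 1 lower for OVA+PM10 against PM10, and one of 0.25 FPKM gave 7 higher for OVA+PM10 against PM10. A filter at 5 FPKM gave a median of 0.71 for OVA+PM10 against control and 1 member lower for PM10 against control. At 4-fold, 1 member was higher and 0 lower in each comparison. The other counts and medians stayed within 1.5 times or 0.25 of the reported value. Tnfrsf9 kept its call for OVA+PM10 against control under both other pseudocounts, both scalings and removal of the length trend. Low values rest on few reads, above all in short transcripts, and no counting interval is given because the authors' gene lengths are not known.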

Other observations

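Superfamily genes whose names fall outside the rule were mostly low. Cd27, a costimulatory receptor of T and B cells, had 3.88, 8.88 and 4.50 FPKM in the OVA+PM10, PM10 and control libraries, Relt 4.02, 2.29 and 1.80 FPKM, and Eda2r 1.26, 0.399 and 0.975 FPKM. Cd70, the ligand of CD27, was listed at 0 in the OVA+PM10 and PM10 libraries and had 0.207 FPKM in the control sample. None of the 3 with at least 1 FPKM was called against control.

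Members that neighbour each other in the genome differed in level. On chromosome 17, Ltb had 71.2, 76.9 and 33.7 FPKM in the OVA+PM10, PM10 and control libraries, while Tnf (35199381 to 35202007) and Lta (35203165 to 35205351) had at most 1.46 and 1.27 FPKM.

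Glycam1, a mucin-like protein of high endothelial venules in lymph nodes and of mammary gland, had 0.711 FPKM in the OVA+PM10 sample, was at a listed 0 in the PM10 sample, and had 134 FPKM in the control sample. Its control value stood far above both others, and its ratios to control were the largest in size among the lymphotoxin and RANK targets.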
